A study of Homo sapiens with 6 samples.

Results

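The thioredoxin and peroxiredoxin family was followed in RNA of HGC-27 cells treated with the peptide GLUP. It was taken as 10 genes found by symbol, the thioredoxins TXN and TXN2, the thioredoxin-like TXNL1, the reductase TXNRD1 and the peroxiredoxins PRDX1, PRDX2, PRDX3, PRDX4, PRDX5 and PRDX6, out of 62443 genes in the deposited table. The question put to them was whether TXNL1 differed between Con and GLUP alone or together with its relatives. The family and TXNL1 within it were chosen by the difference of GLUP from Con in these same libraries, so the members' differences are given as a description and without a p-value. All 10 are protein-coding, averaged 1 FPKM or more over the 6 libraries and were among the 7406 genes tested.

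Thioredoxins are small proteins that reduce disulfide bonds in other proteins through a pair of cysteines, and thioredoxin reductase restores them with electrons from NADPH. Peroxiredoxins use a reactive cysteine to remove hydrogen peroxide, and most of them are then reduced again by thioredoxin. Together they are a main route by which cells, tumour cells included, dispose of peroxide and keep protein thiols reduced.

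HGC-27 is an established human gastric cancer line. GLUP is a cyclized and amidated peptide that was designed, after the TEAD4-binding motif of VGLL4, to bring together molecules of the transcription factor TEAD4. The study's results describe the ring as closed by a disulfide, and its methods describe a cross-link from the head to a side chain. The 3 Con libraries carry no treatment in the labels, while the study's methods name the peptide's buffer as the negative control, and the 3 GLUP libraries came from cells given the peptide. All 6 came from the same line in the same medium, and no genotype or allele differs between the groups. The study's methods speak of biological replicates, without saying which of the 3 libraries of a group came from separate cultures. The exposure time is not in the labels and is given differently in the study's results and methods.

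The values are FPKM (fragments scaled by transcript length and by the mapped fragments of the library), which the authors deposited without read counts, so that the depth behind each value is unknown. FPKM totals ran from 909735 to 965147 per library. Con 2 stood apart, with a mean Pearson correlation of 0.898 with the other libraries across the genes tested, against 0.954 to 0.964 for the rest. The mean correlation of Con 3 was 0.981 with GLUP and 0.939 with Con 1 and Con 2. Of 3 mesenchymal markers, the intermediate filament VIM ran from 222.2 to 387.2 FPKM, FN1 from 0.644 to 3.25 and CDH2 was at most 0.0508. Of 5 epithelial markers, which summed to 2.97 to 3.70 FPKM in Con and 5.18 to 6.06 in GLUP, the keratins KRT8, KRT18 and KRT19 were higher in every GLUP library than in any Con library, while CDH1 and, among the mesenchymal markers, FN1 and CDH2 were lower. These markers thus move with the comparison at low levels, and their part in the results was not tested. The epithelial adhesion genes EPCAM and CDH1 were at most 0.124 and 0.0799 FPKM, the gastric secretory genes TFF1, GKN1 and PGC were listed at 0 in every library, and so the labelled gastric origin could not be read from these genes. The leukocyte gene PTPRC was at most 0.0394 FPKM, and the fibroblast genes DCN, COL1A1 and COL1A2 ran from 16.0 to 41.3, from 2.86 to 6.90 and from 0.123 to 0.443 FPKM, with overlapping groups.

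TXNL1 carries a thioredoxin domain followed by a domain with which it binds the regulatory particle of the proteasome. Its gene (ENSG00000091164) lies on the minus strand of chromosome 18 at 54264440 to 54318831 (GRCh37). Its level was 77.0, 78.2 and 38.6 FPKM in Con 1, 2 and 3, and 17.9, 15.7 and 17.2 FPKM in GLUP 1, 2 and 3. Every GLUP library lay below every Con library, the GLUP libraries were close to each other, and Con 3 lay between the other Con libraries and GLUP. The means were 64.6 ± 22.6 FPKM in Con and 16.9 ± 1.11 FPKM in GLUP (SD, n = 3 each), a 3.81-fold lower level in GLUP. On the log2(FPKM + 1) scale the difference GLUP minus Con was -1.80 (SE 0.34), the 28th largest negative difference among the 7406 genes tested. The median difference of all genes tested was -0.23, and 65.5% of them were lower in GLUP, so relative to that median TXNL1 differed by -1.57. In bulk RNA, a lower level in every cell and a smaller share of cells with the transcript cannot be told apart.

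The sequences just before the start of TXNL1 and of its relative TXNRD1 are shown because these were the members whose promoter held the core letters of the antioxidant response element, the sequence through which NRF2 switches on genes of this pathway. Both are 250 bases from RefSeq (GRCh38.p14), written 5′ to 3′ along the strand of the gene and ending at the base before the start, at chr18:56638593-56638842 on the minus strand for TXNL1 and chr12:104215529-104215778 on the plus strand for TXNRD1. The capitals mark a match to TGACNNNGC that lies wholly within the printed bases, and both strands were searched.
TXNL1: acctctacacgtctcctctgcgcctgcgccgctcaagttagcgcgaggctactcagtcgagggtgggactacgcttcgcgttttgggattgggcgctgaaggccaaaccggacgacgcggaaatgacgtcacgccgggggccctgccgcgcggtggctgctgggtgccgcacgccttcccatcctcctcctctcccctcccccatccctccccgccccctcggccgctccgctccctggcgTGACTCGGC
TXNRD1: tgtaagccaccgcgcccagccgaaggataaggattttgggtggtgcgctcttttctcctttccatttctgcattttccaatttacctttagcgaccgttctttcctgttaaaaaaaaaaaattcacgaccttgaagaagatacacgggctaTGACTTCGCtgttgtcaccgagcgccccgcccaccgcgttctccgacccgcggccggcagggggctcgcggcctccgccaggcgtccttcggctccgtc
The match began 9 bases before the start of TXNL1 and 99 bases before that of TXNRD1. A further match in TXNRD1, on the other strand, began 8 bases before the start and ran past it, so that it is not in capitals. Over windows from 250 bases before to 50 bases after the start, 9 windows were held for 7 members, and 3 of these windows, belonging to TXNL1 and TXNRD1, had the letters. They were in 13.3% of 35116 such windows of all genes. The letters GGAATG of the TEAD motif, searched on both strands, were found in 1 member window, that of PRDX5, and in 14% of all windows. TXN2, PRDX1 and PRDX6 had no window. A match describes letters and not binding, and these libraries hold no measure of NRF2 or TEAD4 on the DNA.

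Among the thioredoxins, TXN, the cytosolic and nuclear form (ENSG00000136810, chromosome 9, 113006090 to 113018787, minus strand), was by far the more abundant. Its level was 2913, 4535 and 3910 FPKM in Con and 3035, 3136 and 3800 FPKM in GLUP. The groups overlapped, with Con 1 the lowest of the 6 libraries and Con 2 the highest. The means were 3786 ± 818.0 and 3324 ± 415.5 FPKM, a log2 difference of -0.17 (SE 0.24). The direction of this difference depended on the scaling, since it was 0.13 under TMM (scaling by trimmed means of log ratios, which moved the median of all genes tested from -0.23 to -0.01), 0.09 after centring on the median and 0.39 after a trend in GC content and length was removed from each library.

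TXN2, the mitochondrial thioredoxin (ENSG00000100348, chromosome 22, 36863093 to 36877687, minus strand), had 72.2, 17.2 and 66.6 FPKM in Con and 70.6, 74.7 and 74.7 FPKM in GLUP. The low value was that of Con 2, and the other Con libraries lay beside the GLUP libraries. The difference was 0.73 (SE 0.49) with all libraries and 0.08 (SE 0.21) without Con 2. The difference of TXNL1 depended less on that library, at -1.63 (SE 0.29) without Con 2.

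The ratio of TXNL1 to TXN within a library does not depend on how that library is scaled. TXNL1 stood at 2.64, 1.73 and 0.986% of the TXN level in Con 1, 2 and 3. In GLUP 1, 2 and 3 it stood at 0.589, 0.501 and 0.453%. All 3 GLUP ratios were below all 3 Con ratios, with Con 3 the nearest to GLUP. As a description, the thioredoxin-like gene and the main thioredoxin differed unequally between these groups, whichever of them moved. TXNL1 was chosen by this contrast, so the separation of the ratios is no test.

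TXNRD1, the cytosolic thioredoxin reductase and a selenoprotein (ENSG00000198431, chromosome 12, 104609557 to 104744085, plus strand), had 14.7, 46.9 and 23.5 FPKM in Con and 16.5, 11.5 and 18.4 FPKM in GLUP. Con 2 was the highest library by a wide margin, and Con 1 lay among the GLUP libraries. The means were 28.4 ± 16.6 and 15.5 ± 3.59 FPKM, a difference of -0.71 (SE 0.42), which was -0.28 (SE 0.29) without Con 2 and -1.08 without Con 1. TXNRD1 encloses RPL18AP3, a ribosomal protein pseudogene on the same strand with 227.6 to 1352 FPKM, and how fragments there were assigned is not given in the sources used here, which leaves the level of TXNRD1 uncertain.

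Of the peroxiredoxins, PRDX3, the mitochondrial form (ENSG00000165672, chromosome 10, 120927232 to 120938324, minus strand), had the largest difference. Its level was 382.6, 633.7 and 241.9 FPKM in Con and 131.0, 172.8 and 254.6 FPKM in GLUP. The groups overlapped in a single pair, Con 3 lying just below GLUP 3. The means were 419.4 ± 198.5 and 186.1 ± 62.9 FPKM, a difference of -1.11 (SE 0.40), with -0.76 (SE 0.31) without Con 2 and -1.45 (SE 0.38) without Con 3. PRDX3 was therefore lower in GLUP in the same direction as TXNL1, with a smaller difference and a wider spread in GLUP.

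PRDX1 and PRDX2, the typical cytosolic peroxiredoxins, were higher in GLUP by their means. PRDX1 (ENSG00000117450, chromosome 1, 45976586 to 46008404, minus strand) had 968.4, 592.1 and 928.7 FPKM in Con and 950.9, 895.9 and 914.6 FPKM in GLUP, a difference of 0.18 (SE 0.28). PRDX2 (ENSG00000167815, chromosome 19, 12907634 to 12912614, minus strand) had 1460, 317.1 and 1450 FPKM in Con and 1066, 1187 and 1150 FPKM in GLUP, a difference of 0.37 (SE 0.52). In both genes Con 2 was the lowest library, and Con 1 was the highest. Without Con 2 the differences were -0.04 (SE 0.19) for PRDX1 and -0.36 (SE 0.19) for PRDX2, so that the direction turned. PRDX2 shares positions with HOOK2 on the same strand and with ENSG00000267062 on the other strand (1.37 to 39.3 FPKM), and PRDX1 with MMACHC on the other strand. Counting by strand is not stated, so part of these levels may come from the overlapping genes.

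PRDX5, the atypical form found in mitochondria, peroxisomes and cytosol (ENSG00000126432, chromosome 11, 64085593 to 64089283, plus strand), had 1648, 512.4 and 1768 FPKM in Con and 1496, 1369 and 1556 FPKM in GLUP. Con 2 was again the lowest library and the other Con libraries lay above every GLUP library. The difference was 0.36 (SE 0.43) with all libraries and -0.21 (SE 0.19) without Con 2. PRDX6, the form with a single catalytic cysteine that also acts on phospholipids (ENSG00000117592, chromosome 1, 173446469 to 173457954, plus strand), had 81.1, 45.8 and 73.9 FPKM in Con and 72.9, 65.5 and 93.9 FPKM in GLUP. Its difference was 0.23 (SE 0.33), and -0.02 (SE 0.24) without Con 2. PRDX4, the form of the endoplasmic reticulum (ENSG00000123131, chromosome X, 23682379 to 23704514, plus strand), had 298.1, 180.9 and 211.4 FPKM in Con and 171.7, 189.0 and 186.8 FPKM in GLUP. The groups overlapped through Con 2, and the difference was -0.30 (SE 0.29), with -0.46 (SE 0.23) without Con 2 and -0.10 without Con 1.

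**Figure D1:**
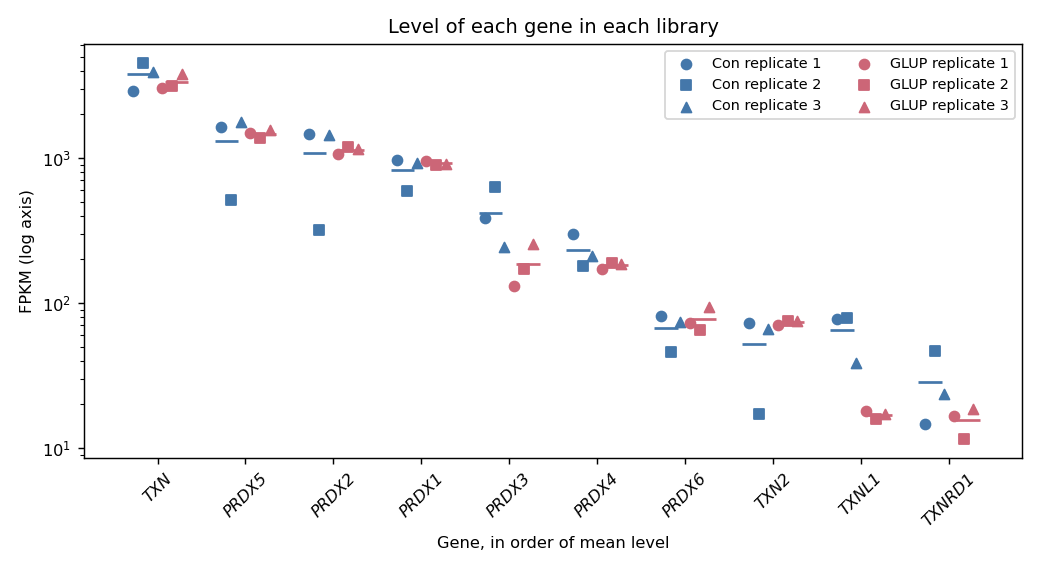
FPKM of each member in each library on a log axis, ordered by the mean over the 6 libraries, with points for libraries and short lines for group means. The 3 GLUP points of TXNL1 lie at 15.7 to 17.9 FPKM, below its lowest Con point at 38.6, while the groups of the other 9 members overlap.

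By the mean over the 6 libraries, the order of levels per length was TXN, PRDX5, PRDX2, PRDX1, PRDX3, PRDX4, PRDX6, TXN2, TXNL1 and TXNRD1. The ranges over libraries were apart for TXN and PRDX5 and for PRDX4 and PRDX6, and overlapped for all other neighbours in this order. TXN ranked between 32 and 53 among all genes of a library, and TXNL1 between 700 and 1588.

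The family as a whole was divided by direction. By the group means 5 members were lower in GLUP (TXN, TXNL1, TXNRD1, PRDX3 and PRDX4) and 5 were higher (TXN2, PRDX1, PRDX2, PRDX5 and PRDX6), and the median difference of the 10 was 0.01. That of the other 9 was 0.18, and TXNL1 differed from it by -1.99 on the log2 scale. TXNL1 was the 1 member of 10 whose groups did not overlap, where 30.3% of all genes tested had groups that did not overlap, 22.7% with GLUP lower and 7.55% with GLUP higher. Nothing is read from that count, because the choice of the members used this contrast. With limma and Benjamini-Hochberg adjustment over all genes tested, no member and 0 genes in all (0%) passed an adjusted p of 0.05, while 1606 genes had an unadjusted p under 0.05.

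The count of members without overlap depended on which libraries were used. Without Con 2, 37.9% of all genes tested had groups that did not overlap, and 4 of the 10 members were among them, TXNL1, PRDX2, PRDX4 and PRDX5, all with GLUP below Con. Without Con 3, 18.5% of all genes tested passed the adjusted p of 0.05 in limma (1367 genes, against 3 without Con 2), and 2 of the 10 members were among them, TXNL1 and PRDX3, both lower in GLUP. Without Con 1, the groups did not overlap in 35.6% of all genes tested and in 4 of the 10 members, with GLUP below Con in TXN, TXNL1 and TXNRD1 and above it in TXN2. TXNL1 did not overlap, with GLUP below, in all libraries together and in each of the 17 other settings tried. PRDX3, TXNRD1 and PRDX4 were also lower in GLUP by their means in every setting, and TXN2 was higher in every setting. All these counts rest on the contrast that chose the members, and nothing is read from them. The difference of PRDX4 came down to -0.0046 under TMM.

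**Figure D2:**
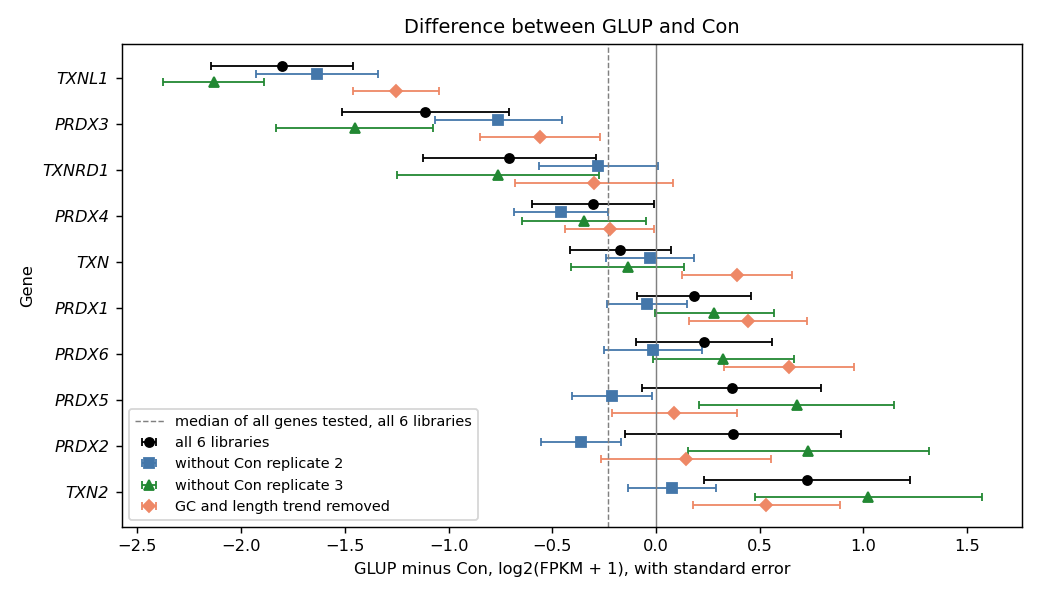
Difference GLUP minus Con on the log2(FPKM + 1) scale for each member, with bars of 1 SE, for all 6 libraries, without Con 2, without Con 3 and after removal of the GC and length trend, with the median of all genes tested as a dashed line. TXNL1 lies between -2.13 and -1.25 in these settings, while PRDX1, PRDX2, PRDX5 and PRDX6 lie on either side of 0 depending on Con 2.

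Con 2 moved with the base composition of the transcripts. It was the highest library in TXN, TXNL1, TXNRD1 and PRDX3, whose canonical transcripts have a GC content of 36.8 to 43.8%. PRDX4, at 50.3% GC, had Con 2 as neither its highest nor its lowest library. Con 2 was the lowest in TXN2, PRDX1, PRDX2, PRDX5 and PRDX6, with 43.9 to 60.6% GC. The same order was seen over all genes tested with a known GC content, where Con 2 was the highest library in 66.0% of the genes with the lowest GC (the tenth of genes at that end) and in 8.25% of those with the highest. It was the lowest library in 3.25% and 69.8% of these genes. TXNRD1 (43.8% GC) and PRDX6 (43.9% GC) had nearly equal GC, but Con 2 was the highest library in TXNRD1 and the lowest in PRDX6. Among the genes with 42.5 to 44.8% GC, Con 2 was the highest library in 52.3% and the lowest in 8.67%. Why PRDX6 differed from TXNRD1 was not tested.

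The difference between GLUP and Con also ran with GC content. Its median over genes was -0.61 at the low end of GC (the tenth of genes from 23.1 to 38.2%) and 0.31 at the high end. TXNL1, at 37.9% GC, and TXN, at 36.8%, both belong to the group with the lowest GC, so these relatives can be set side by side at nearly equal composition. TXNL1 differed by -1.80 and TXN by -0.17, on either side of the median of that group. Of the genes in that group, 1.35% had a difference at or below that of TXNL1. TXNL1 was chosen by this contrast, so that share is no test. After the GC and length trend was removed from each library, TXNL1 was at 5.96, 5.62 and 5.49 on the log2 scale in Con and at 4.49, 4.39 and 4.44 in GLUP. The groups remained apart and Con 3 came close to the other Con libraries, with a difference of -1.25 (SE 0.21). On the same scale PRDX3 differed by -0.56 (SE 0.29) and TXNRD1 by -0.30 (SE 0.38).

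**Figure D3:**
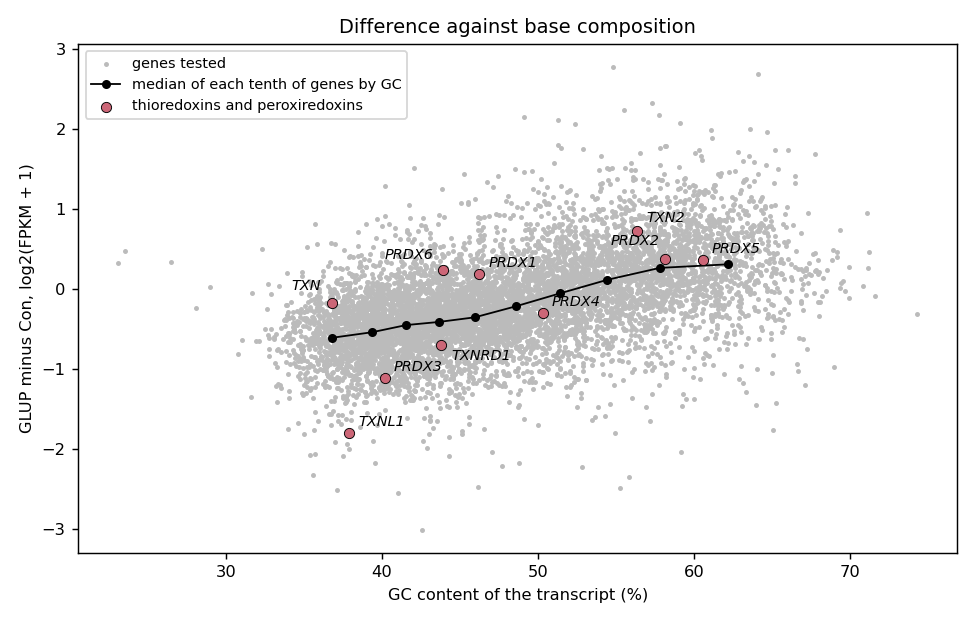
Difference GLUP minus Con (log2) against the GC content of the canonical transcript in percent, with genes tested in grey, the median of 10 nearly equal groups of genes by GC in black and the members in red. The medians climb from -0.61 to 0.31, TXN lies above and TXNL1 far below the median of the group with the lowest GC.

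The 6 peroxiredoxins together summed to 4838, 2282 and 4674 FPKM in Con and to 3889, 3879 and 4156 FPKM in GLUP. Con 2 had the lowest sum, and the other Con libraries lay above every GLUP library. PRDX3 made up 27.8% of the sum in Con 2 and between 3.37 and 7.91% in the other 5 libraries. PRDX2 made up 13.9% of it in Con 2 and between 27.4 and 31.0% in the others.

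The genes whose pattern over the 6 libraries was most like that of TXNL1 were found by the root mean square distance of log2(FPKM + 1) after each gene was centred on its mean. They were CDKN3, a phosphatase that acts on cyclin-dependent kinases (distance 0.147), DNAJB6, a co-chaperone of HSP70 (0.182), GLRX2, the mitochondrial glutaredoxin (0.187), HIGD1A, a mitochondrial membrane protein (0.201), and RAD54B, a helicase of DNA recombination (0.206). CDKN3 had 616.6, 639.8 and 276.6 FPKM in Con and 148.5, 163.3 and 156.7 FPKM in GLUP. GLRX2 had 34.7, 28.6 and 14.5 FPKM in Con and 6.80, 5.78 and 9.07 FPKM in GLUP. Both were picked for their likeness to TXNL1 and so had its order, with Con 1 and Con 2 high, Con 3 between and GLUP low. The differences of these 5 genes ran from -1.65 to -1.42. No member was among them, and the nearest was PRDX3, with a distance of 0.496 and 495th in order, followed by TXNRD1 with 0.780 and 2830th. TXN was 4134th and TXN2 7054th. GLRX2 shares positions with RO60 on the other strand, so its level is uncertain in the same way as those named above.

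**Figure D4:**
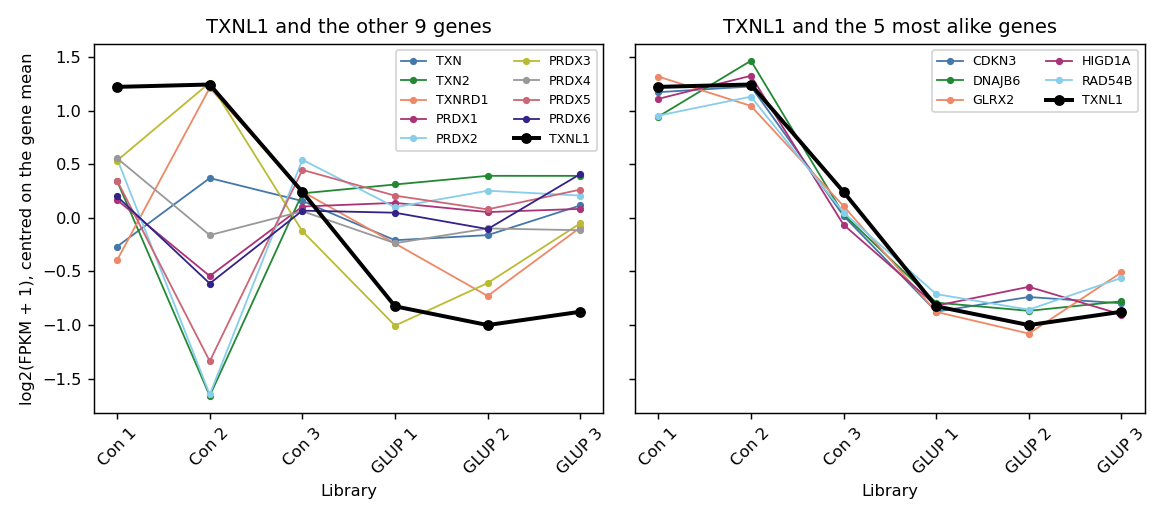
Log2(FPKM + 1) centred on the mean of each gene, by library, with TXNL1 and the other 9 members on the left and TXNL1 and the 5 genes most like it on the right. The nearest genes follow TXNL1 within a root mean square distance of 0.206, and the nearest member, PRDX3, lies at 0.496.

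Of the genes on either side of TXNL1 on chromosome 18, WDR7 was too low to show a pattern and TCF4 was higher in GLUP. WDR7, on the other strand and sharing 258 bases with TXNL1, was at 0.0488 to 0.108 FPKM, under the minimum of 1 FPKM. TCF4, a transcription factor gene 932422 bases away, had 5.91 ± 1.13 FPKM in Con and 8.28 ± 0.867 FPKM in GLUP (SD, n = 3 each). Its difference was 0.43 (SE 0.27). Every GLUP library lay above every Con library, by little between GLUP 2 (7.31 FPKM) and Con 1 (7.16 FPKM).

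Of 16 partners and substrates of thioredoxin, 8 were tested and 0 passed the adjusted p of 0.05. Their median difference was -0.15, beside -0.23 over all genes tested, and 0.07 after the GC trend was removed, beside 0.01. Without Con 3, 0 of the 8 passed the adjusted p in limma, beside 18.5% of all genes tested. TXNIP, which binds and inhibits thioredoxin, had 3.45 ± 0.630 FPKM in Con and 3.09 ± 0.601 in GLUP, a difference of -0.12 (SE 0.26). The mitochondrial reductase TXNRD2 had 8.20, 2.17 and 8.47 FPKM in Con and 3.61, 4.66 and 4.10 in GLUP, so that Con 2 lay below and the other Con libraries above GLUP. Its difference was -0.35 (SE 0.42), and -0.87 without Con 2. SRXN1, the sulfiredoxin that repairs overoxidized peroxiredoxins, was at 5.10 FPKM in Con 1 and listed at 0 in the other 5 libraries. MSRB2, a mitochondrial methionine sulfoxide reductase, and RRM1, the large subunit of ribonucleotide reductase, were lower in every GLUP library, by differences of -0.61 (SE 0.31) and -0.47 (SE 0.27). For MSRB2, Con 1 and GLUP 1 were both at 1.33 FPKM when rounded, Con 2 was the highest library at 3.96, and the difference was -0.27 without Con 2 and -0.38 after the GC trend was removed. That of RRM1 was -0.02 after the GC trend was removed.

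Of 19 other proteins with a thioredoxin fold, 15 were tested and 0 passed, with 11 lower and 4 higher by their means. Their median was -0.23, as over all genes tested, and 0.14 after the GC trend was removed, beside 0.01. TXNL4A and TXNL4B, relatives of TXNL1 by name that belong to the splicing machinery, differed by -1.12 (SE 0.34) and -1.07 (SE 0.27). TXNDC9, a partner of the chaperonin TRiC, differed by -0.90 (SE 0.33), or -0.24 after the GC trend was removed. These were the 3 of the 15 with GLUP below Con without overlap, and 1 other had GLUP above, beside 22.7% and 7.55% of all genes tested. Without Con 3, 5 of the 15 passed the adjusted p in limma, beside 18.5% of all genes tested. TXNL4B and TXNDC9 share positions with DHX38 and EIF5B on the other strand.

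In the glutathione arm, which reduces peroxides and disulfides alongside thioredoxin, 12 of 16 genes were tested and 0 passed. The groups did not overlap in 7 of them, 6 below and 1 above, where 22.7% of all genes tested were below and 7.55% above. The median of the list was -0.35, beside -0.23 over all genes tested. After the GC trend was removed it was 0.04, beside 0.01. Without Con 3, 4 of the 12 passed the adjusted p in limma, beside 18.5% of all genes tested. GPX4, the peroxidase that acts on lipid peroxides, had 88.4, 31.4 and 182.2 FPKM in Con and 246.3, 206.7 and 215.4 FPKM in GLUP. Every GLUP library lay above every Con library, with a difference of 1.46 (SE 0.53), or 0.80 without Con 2. The glutaredoxins GLRX2 and GLRX5, the latter of iron-sulfur cluster assembly, were lower, by -1.65 (SE 0.37) and -1.17 (SE 0.35). The dismutases and catalase gave 2 genes tested, 0 passing and a median of 0.02, and 0 passed without Con 3.

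The regulatory particle of the proteasome, with which TXNL1 associates, had all 18 listed subunits tested, of which 0 passed. By their means 12 were lower and 6 higher in GLUP, and the groups did not overlap in 8 with GLUP below and 2 with GLUP above, beside 22.7% and 7.55% of all genes tested. PSMD14, the deubiquitinase of the particle, had 81.0, 90.0 and 47.5 FPKM in Con and 33.9, 36.9 and 34.2 FPKM in GLUP, a difference of -0.99 (SE 0.33). PSMD1, a scaffold subunit, differed by -0.92 (SE 0.29), and the ATPase subunit PSMC4 by 0.90 (SE 0.44), or 0.38 without Con 2. The median of the list was -0.49, beside -0.23 over all genes tested, and -0.15 after the GC trend was removed. Without Con 3, 5 of the 18 passed the adjusted p in limma, beside 18.5% of all genes tested.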

How the data were processed

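RNA-seq of HGC-27 gave 6 libraries, grouped by title as 3 Con and 3 GLUP. FPKM per gene was deposited by the authors in 1 table. The submitters' processing notes name HISAT2, Cufflinks, RSEM and GRCh38.p10 without roles or versions, whereas most identifiers carry the suffix of a GENCODE annotation lifted to GRCh37, from which coordinates, length and GC content were taken. FPKM is relative to the library total and to gene length, so abundant genes can move the others. Low values piled up only weakly at multiples of a step (3.78 to 5.61% of low values), and read counts were not recovered.

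Of 62492 rows, 49 pseudoautosomal copies were summed with their counterparts. Values were taken as log2(FPKM + 1), which understates differences of low genes, and genes averaging 1 FPKM or more were fitted with limma 3.58.1 (lmFit, eBayes with trend, two-sided, no covariates) in R 4.3.3, and p-values were adjusted by Benjamini-Hochberg over the whole set. The fit was also run on simulated data, and the share of changes recovered there is not given here. A lack of genes past the adjusted p is therefore not read as a lack of change. The GC and length trend was a loess curve (span 0.5) per library, drawn without the groups. Other settings were pseudocounts of 0.1 and 0.01, no minimum or 5 FPKM, TMM (trimmed mean of log ratios), centring on the median, quantile normalization, eBayes without trend, a replicate block and leaving out each library. No pair of libraries shared an identical value above 0. An exact permutation test of 3 against 3 libraries cannot go below a p of 0.1.

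The members and lists were chosen with earlier results of these data known. Named genes were the 10 members, TXNIP, TXNRD2 and SRXN1, up to 3 genes per list with the largest difference among those whose groups did not overlap, the 5 genes most like TXNL1 and its neighbours. Motifs were searched in RefSeq promoter windows (GRCh38.p14). Python 3.11.15, pandas 2.3.3, numpy 2.4.6 and matplotlib 3.10.9 were used.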

Additional observations from a re-analysis of the deposited data

How the results depend on the processing

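The depth behind the FPKM values is unknown and each group holds 3 libraries, of which Con 2 stood apart by GC content. TXNL1 stayed lower in GLUP under all 17 other settings. Among these, no minimum, a 5 FPKM minimum, eBayes without trend and the replicate block cannot change its difference. All settings draw on the same libraries and on the contrast that chose TXNL1, so nothing is read from that count. Removing the GC and length trend took the TXNL1 difference from -1.80 to -1.25. The distance of TXNL1 from the median of the other members went from -1.99 to -1.40. Both values were the same under a replicate block, which cannot change a difference between groups that hold the same replicate numbers. Leaving out each library gave -2.13 (Con 3) to -1.63 (Con 2) for the difference and -2.41 to -1.42 for the distance. Members without overlap, 1 of 10, became 3 under TMM, centring and quantile normalization, and 1 to 4 on leaving out each library. The share of all genes tested was 30.3% with all libraries, 37.9% without Con 2 and 35.6% without Con 1. That share is not given here for the other settings, and nothing is read from these counts. The count of genes past the adjusted p, 0, became 1 at a 5 FPKM minimum, 1 when eBayes used no trend, 1 under the replicate block, 2 after the GC correction and 1 for the GC correction plus block, none of them a member. Leaving out each library gave 0 to 1367 (Con 3). The replicate numbers did not pair the libraries (correlations of deviations 0.13, -0.01 and -0.17). Nothing is read from the TXNL1 difference of -1.80 under the block. PRDX1, PRDX2, PRDX5 and PRDX6 turned to -0.04, -0.36, -0.21 and -0.02 without Con 2. TXN turned to 0.13 under TMM, 0.09 under centring and 0.39 after the GC correction, where the block again changes nothing by design. The cause of these turns was not tested.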

Other observations

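The table also listed 20 pseudogenes of the members, of which 9 were at 0 in every library and 2 exceeded 1 FPKM in at least 1 library, PRDX3P2 with 0 to 6.04 FPKM and TXNP4 with 1.49 to 2.42 FPKM. Pseudogenes share sequence with their parent genes, and how such fragments were divided is not given in the sources used here, so the levels of TXN and PRDX3 carry that uncertainty.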
